A study of Rattus norvegicus with 6 samples.

Results

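Cd68, Aif1, Itgam, Spp1 and Gpnmb were chosen as 5 genes used to mark macrophages and, for Spp1 and Gpnmb, lipid-clearing macrophages, and all 5 were found by their Ensembl gene ID among the 30562 IDs of the count table. Poly(A)-enriched RNA of the facial nerve of wild type rats was sequenced on day 14 after injury. One group of 3 libraries, called FNI, came from the injury model alone. The other group of 3 came from injured nerve given C-Gel-light, which the series title ties to a hydrogel that holds the green alga Chlorella and gives off oxygen in light. Injury was thus shared by both groups, and the labels name no kind of injury, strain, age, sex or number of animals behind a library. The p-values therefore rest on differences between libraries of a group, and these may be technical. Not analysed here were uninjured nerve and nerve given only the gel or only light.

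After a peripheral nerve is cut or crushed, macrophages enter it and take up the debris of axons and myelin, which is rich in lipid. Cells that are loaded with lipid enlarge their lysosomes and switch on genes for lysosomal and surface proteins, and they leave or change state as the debris is cleared. CD68 is a heavily glycosylated protein of macrophage lysosomes. AIF1, also called IBA1, binds calcium and actin and marks macrophages and microglia. ITGAM, or CD11b, is the alpha chain of complement receptor 3 and is carried by monocytes, neutrophils and macrophages. GPNMB is a membrane glycoprotein of lysosomes and the cell surface that is switched on by lysosomal stress. SPP1, or osteopontin, is a secreted protein that binds integrins and CD44, and Schwann cells and other cells make it as well as macrophages.

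The fold changes of the 5 genes differed in sign and size. Gpnmb was 27.0-fold lower and Cd68 6.88-fold lower with C-Gel-light than in FNI. Falls named below are such differences between groups on the same day. Aif1 and Itgam had lower means with C-Gel-light but passed no threshold, and Spp1 had a mean 3.53-fold higher that also missed it. At an adjusted p under 0.05 in edgeR's quasi-likelihood test, 2 of the 5 genes passed, both lower, where 14.8% of the 15581 genes tested passed in either direction and 7.7% passed as lower. In 4 of the 5 genes, all but Itgam, the CPM values (counts scaled to library size) of the 2 groups stayed apart, as they did for 39.1% of the genes tested. Of these 4, 3 were lower with C-Gel-light, as were 20.8% of the genes tested, and 1 was higher, as were 18.2%. In bulk tissue, fewer macrophages, less Gpnmb and Cd68 RNA per macrophage, and a changed share or RNA level of other cells cannot be told apart. Other macrophage markers were not analysed here, because the files do not pair gene IDs with names. The label of the 5 genes could thus be checked only among themselves. There Spp1, which was not called, and Gpnmb, both chosen for lipid-clearing macrophages, had log2 fold changes of opposite sign (1.82 and -4.75). The estimates of Gpnmb, Cd68, Aif1 and Itgam were lower with C-Gel-light, and that of Spp1 alone was higher.

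**Figure D1:**
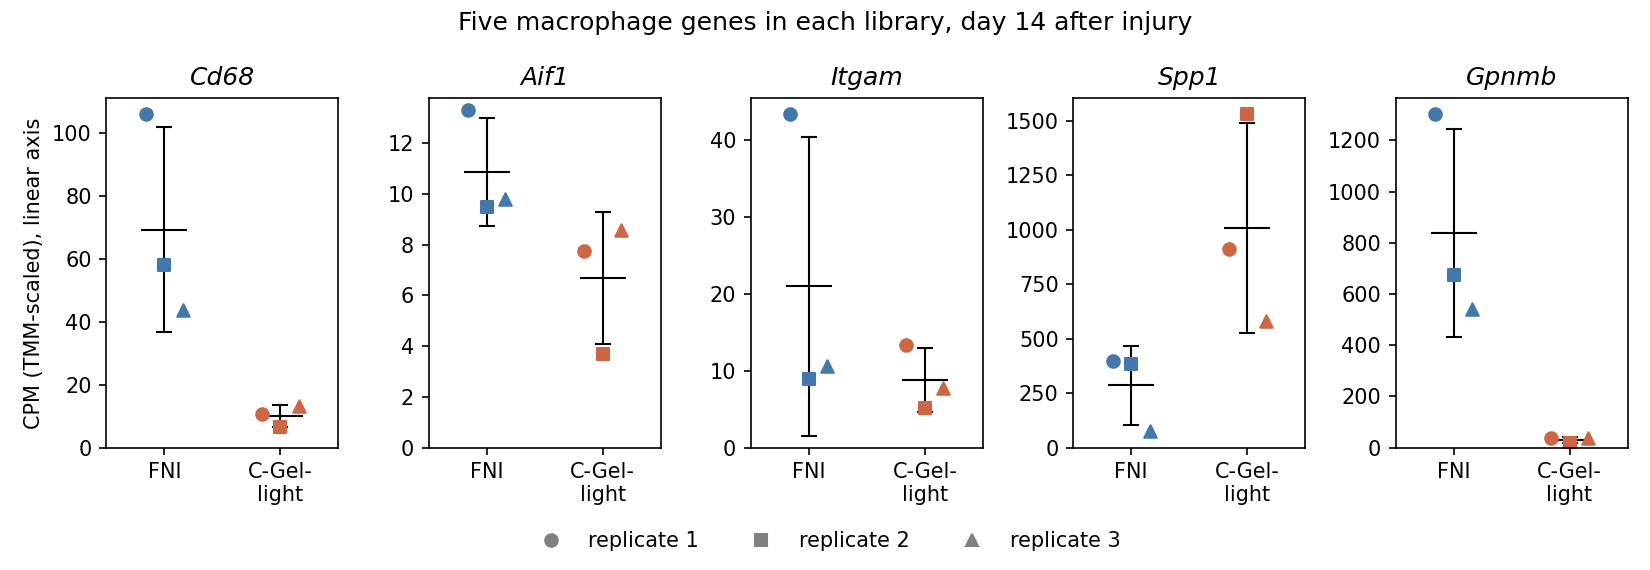
CPM of each gene in every library, on linear axes that start at 0 and differ between panels. Points are libraries, horizontal bars are group means and whiskers are SDs (n = 3 libraries). Gpnmb and Cd68 lie near the bottom of their panels in all 3 C-Gel-light libraries, Itgam is high in FNI replicate 1 alone, and Spp1 is higher in the C-Gel-light libraries.

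Total counts were 22957382 to 25841659 in FNI and 25048554 to 28997855 with C-Gel-light. The 10 most abundant genes held 11.3% to 14.7% of the counts in FNI and 17.9% to 21.8% with C-Gel-light. TMM factors, which correct for this, were 1.054 to 1.139 and 0.866 to 0.983. With library totals in their place the median log2 fold change of all genes tested moved from -0.01 to -0.26, and the share of called genes that were higher went from 47.8% to 16.4%. No gene of the 5 changed direction or call with that scaling. Every library had a batch label of its own, so batch, if the label marks one, and group cannot be told apart.

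Gpnmb (ENSRNOG00000008816, chromosome 4) was among the most abundant genes in FNI and was a gene of moderate level with C-Gel-light. FNI replicates 1 to 3 gave 36391, 16434 and 14114 counts, or 1301, 673 and 540 CPM. C-Gel-light replicates 1 to 3 gave 961, 406 and 945 counts, or 38.3, 16.5 and 38.4 CPM. The lowest FNI library thus stood far above the highest C-Gel-light library. Its rank by per-length level was 45, 117 and 150 in the FNI libraries, where 19070 to 19356 genes had a count, and 4440, 7971 and 4425 with C-Gel-light. The means were 838 ± 406 CPM and 31.0 ± 12.6 CPM (SD, n = 3). The edgeR fit gave a log2 fold change of -4.75 with an SE of 0.49 and an adjusted p of 0.0053. The 95% interval of the fold was 12 to 60.8. Called falls of at least 16-fold made up 0.334% of all genes tested. Among the 71 other tested genes with at least as high a mean CPM in FNI, 0 had a log2 fold change as low as that of Gpnmb. Those genes were picked by their FNI level, which by itself favours falls, so this count is a description.

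Cd68 (ENSRNOG00000037563, chromosome 10) fell less, from a lower level. FNI replicates 1 to 3 gave 2979, 1414 and 1145 counts (106, 57.9 and 43.8 CPM). C-Gel-light replicates 1 to 3 gave 266, 160 and 324 counts (10.6, 6.5 and 13.2 CPM). The highest C-Gel-light library was well under the lowest FNI library. The means were 69.4 ± 32.9 and 10.1 ± 3.36 CPM (SD, n = 3). The edgeR fit gave a log2 fold change of -2.78 with an SE of 0.40 and an adjusted p of 0.0097, and the 95% interval of the fold was 3.57 to 13.2. Called falls of at least 4-fold made up 1.57% of the genes tested.

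FNI replicate 1 held the highest level of Gpnmb and of Cd68, with 51.8% and 51.2% of the summed FNI CPM. Without it the log2 fold changes were -4.29 and -2.33, with adjusted p of 0.01 and 0.018 by edgeR. Both calls were thus kept without that library.

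**Figure D2:**
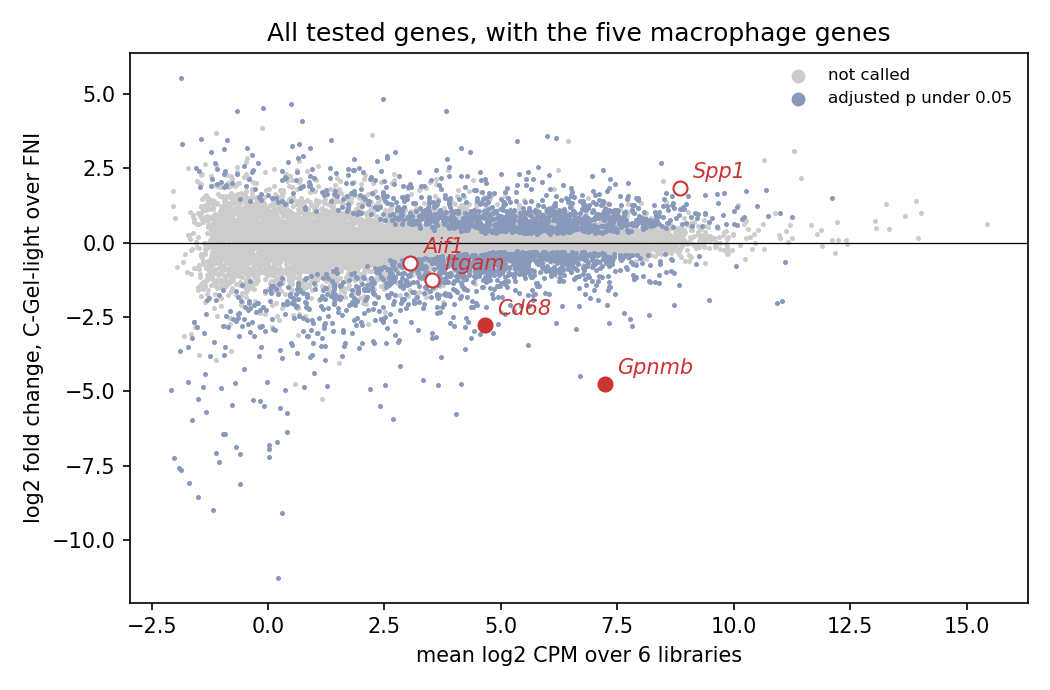
Log2 fold change (C-Gel-light over FNI, vertical axis) against mean log2 CPM over the 6 libraries (horizontal axis) for the 15581 genes tested. Small points are genes, in blue where the adjusted p is under 0.05. Filled red circles mark Gpnmb and Cd68, which passed the test, and open red circles mark Aif1, Itgam and Spp1, which did not. Gpnmb lies at -4.75, where the median of all genes is -0.01.

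The bases before the start sites of the pair of genes that fell and of Spp1 are shown because the fold changes of Gpnmb and Cd68 and that of Spp1, which was not called, had opposite signs. Chromosomes and promoter windows come from RefSeq, and windows were found for 4 of the 5 symbols, all but Aif1, in the RefSeq table of build GRCr8, which is not the build of the files. Each sequence is the 250 bases upstream of the start site in that table, on the gene's own strand. The windows are chr4:79340878-79341127 on the plus strand for Gpnmb, chr10:54882442-54882691 on the minus strand for Cd68 and chr14:5619805-5620054 on the minus strand for Spp1. Capitals mark matches, on either strand, to 5 motifs.
Gpnmb: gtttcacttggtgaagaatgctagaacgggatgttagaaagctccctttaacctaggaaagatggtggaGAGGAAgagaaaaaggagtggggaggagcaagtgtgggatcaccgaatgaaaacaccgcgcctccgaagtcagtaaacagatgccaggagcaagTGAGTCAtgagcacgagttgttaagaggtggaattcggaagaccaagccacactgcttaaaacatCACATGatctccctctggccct
Cd68: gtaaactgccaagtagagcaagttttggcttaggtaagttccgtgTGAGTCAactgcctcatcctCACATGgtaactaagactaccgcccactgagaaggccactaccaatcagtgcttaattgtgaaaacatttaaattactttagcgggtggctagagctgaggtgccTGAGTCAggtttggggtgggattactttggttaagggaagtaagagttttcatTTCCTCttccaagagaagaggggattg
Spp1: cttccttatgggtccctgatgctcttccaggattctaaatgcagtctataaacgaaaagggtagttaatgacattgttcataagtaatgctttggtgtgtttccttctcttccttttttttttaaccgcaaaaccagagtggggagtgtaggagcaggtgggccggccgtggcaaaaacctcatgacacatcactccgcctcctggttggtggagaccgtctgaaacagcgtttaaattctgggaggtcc
The motifs were CACATG and CACGTG, cores bound by factors of the MITF and TFE family, TGANTCA (AP-1), GAGGAA (core of PU.1 sites) and a direct repeat of the LXR type. Gpnmb held CACATG 22 to 17 bases before its start site, a letter string found in 12.1% of the 33469 windows of equal length in the table. It also held TGAGTCA 87 to 81 bases and GAGGAA 181 to 176 bases before the start. The Cd68 window held CACATG at 185 to 180 bases, TGAGTCA at 205 to 199 and again at 80 to 74 bases, and GAGGAA on the other strand at 27 to 22 bases. TGANTCA was found in 6.34% and GAGGAA in 23.3% of all windows. The window of Spp1 held 0 matches to any of the 5, and that of Itgam held 2 to GAGGAA alone. CACGTG, found in 5.59% of all windows, and the LXR-type repeat, found in 1 window, were in none of these 4. Letter matches are a description of these windows and show no binding.

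Aif1 (ENSRNOG00000000853, chromosome 20), a general macrophage marker, had a smaller fold change than Cd68. FNI replicates 1 to 3 gave 373, 232 and 256 counts (13.3, 9.5 and 9.79 CPM). C-Gel-light replicates 1 to 3 gave 195, 91 and 211 counts (7.76, 3.7 and 8.57 CPM). The groups did not overlap, but the highest C-Gel-light library and the lowest FNI library lay close together. The means were 10.9 ± 2.13 and 6.68 ± 2.61 CPM (SD, n = 3). The edgeR fit gave a log2 fold change of -0.70 with an SE of 0.32, an adjusted p of 0.18 and a 95% interval of -1.46 to 0.05. A fall to 0.365 of the FNI level and no change both lie within that interval. C-Gel-light replicate 2 had the lowest level, and its 91 counts carry an exact Poisson interval of 73.3 to 111.7 at 95%, which covers counting error only. Leaving it out gave a log2 fold change of -0.41 with an edgeR adjusted p of 0.24.

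Itgam (ENSRNOG00000019728, chromosome 1) was set apart by 1 library. It had 1213 counts in FNI replicate 1 but 218 and 278 in FNI replicates 2 and 3 (43.3, 8.92 and 10.6 CPM). C-Gel-light replicates 1 to 3 gave 333, 128 and 190 counts (13.3, 5.2 and 7.72 CPM). C-Gel-light replicate 1 thus lay above FNI replicates 2 and 3, and the groups overlapped. FNI replicate 1 gave 68.9% of the summed FNI CPM. The edgeR fit gave a log2 fold change of -1.27 with an SE of 0.66, an adjusted p of 0.24 and a 95% interval of -2.84 to 0.30. Without FNI replicate 1 it was -0.17 with an SE of 0.38 and an edgeR adjusted p of 0.82. The same library was the highest FNI library for all 5 genes, by the widest margin for Itgam.

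Spp1 (ENSRNOG00000043451, chromosome 14) stood opposite to Gpnmb. FNI replicates 1 to 3 gave 11105, 9381 and 2007 counts (397, 384 and 76.7 CPM). C-Gel-light replicates 1 to 3 gave 22857, 37701 and 14361 counts (910, 1532 and 583 CPM). All C-Gel-light libraries were above the highest FNI library, and FNI replicate 3 was far below the others. The means were 286 ± 181 and 1009 ± 482 CPM (SD, n = 3). The log2 fold change was 1.82 (SE 0.64) with an unadjusted p of 0.025 and an adjusted p of 0.1 by edgeR, so Spp1 was not called. Its 95% interval, which is not adjusted for the number of genes, was 0.31 to 3.33. An unadjusted p under 0.05 in the same direction was found for 15.8% of the genes tested. The SD of log2 CPM was 1.35 in FNI and 0.70 with C-Gel-light, against medians over all genes of 0.17 and 0.21. Leaving out FNI replicate 3 gave 1.37 (SE 0.40, edgeR adjusted p = 0.11), and leaving out C-Gel-light replicate 2 gave 1.39 (SE 0.68, edgeR adjusted p = 0.24). At these levels Spp1 ranked 34 to 67 by per-length level with C-Gel-light and 101, 113 and 908 in FNI replicates 1 to 3.

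The order of the 5 genes within a library can be read from TPM values, which allow for gene length and were made from the deposited FPKM. By its values, FPKM used the same length for a gene in every library, such as 2013 bases for Aif1 and 1285 for Cd68. The order between genes depends on these lengths, which were not checked. With C-Gel-light the order by mean was Spp1 (1546 ± 696 TPM), Gpnmb (27.0 ± 11.5), Cd68 (19.3 ± 7.37), Aif1 (8.13 ± 3.45) and Itgam (4.84 ± 2.11; SD, n = 3 throughout). Each of the 3 libraries had this same order. The means of Gpnmb and Cd68, and those of Aif1 and Itgam, lay closer together than the sum of their SDs. Those SDs are spreads between libraries and do not measure the difference within a library. Within C-Gel-light replicates 1 to 3, Gpnmb stood at 1.65, 1.16 and 1.34 times Cd68. In FNI the order by mean was Gpnmb (853 ± 404 TPM), Spp1 (516 ± 319), Cd68 (154 ± 71.2), Aif1 (15.5 ± 2.97) and Itgam (13.8 ± 12.6; SD, n = 3). There Gpnmb stood above Spp1 in replicates 1 and 3 but at 663 against 679 TPM in replicate 2, so this pair did not differ beyond its spread. Spp1 stood above Cd68 in all 3 FNI libraries, at 3.06, 5.45 and 1.44 times its level in replicates 1 to 3. These means too lay closer together than the sum of their SDs between libraries. Itgam stood above Aif1 in FNI replicate 1 alone, at 28.3 against 18.8 TPM. Spp1 thus exceeded every other gene of the 5 by at least 27.3-fold in each C-Gel-light library, and in no FNI library did it do so.

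Ratios to Cd68 within a library do not depend on scaling between libraries. Per length, Gpnmb stood at 5.59, 5.32 and 5.64 times Cd68 in FNI replicates 1 to 3, although Cd68 itself varied from 43.8 to 106 CPM there. With C-Gel-light the ratio was 1.65, 1.16 and 1.34. On the log2 scale of counts the group means were 3.59 ± 0.05 and 1.58 ± 0.26 (SD, n = 3), a difference of -2.01. Gpnmb was thus 4.03-fold lower relative to Cd68, beyond the fall of Cd68 itself. For Aif1 and Itgam the ratio went the other way. Aif1 was at 0.0799 to 0.143 of the Cd68 level in FNI and at 0.363 to 0.468 with C-Gel-light, a log2 difference of 1.96. Itgam was at 0.0456 to 0.12 and at 0.173 to 0.37, a log2 difference of 1.76. Spp1 was at 1.44 to 5.45 times Cd68 in FNI and at 36.4 to 193 times Cd68 with C-Gel-light, a log2 difference of 4.78, or 4.13 without C-Gel-light replicate 2. In each of the 4 ratios the groups stayed apart, but so did 95.8% of the ratios to Cd68 of all 15580 other genes tested. The fall of Cd68, the shared denominator, is part of every one of these ratios. The separation of Aif1, Itgam and Spp1 in these ratios is therefore no result about those genes. Each of the 4 had a two-sided exact permutation p of 0.1, and 0.1 after adjustment over the 4, the smallest that 3 against 3 libraries allow, so none can pass 0.05.

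**Figure D3:**
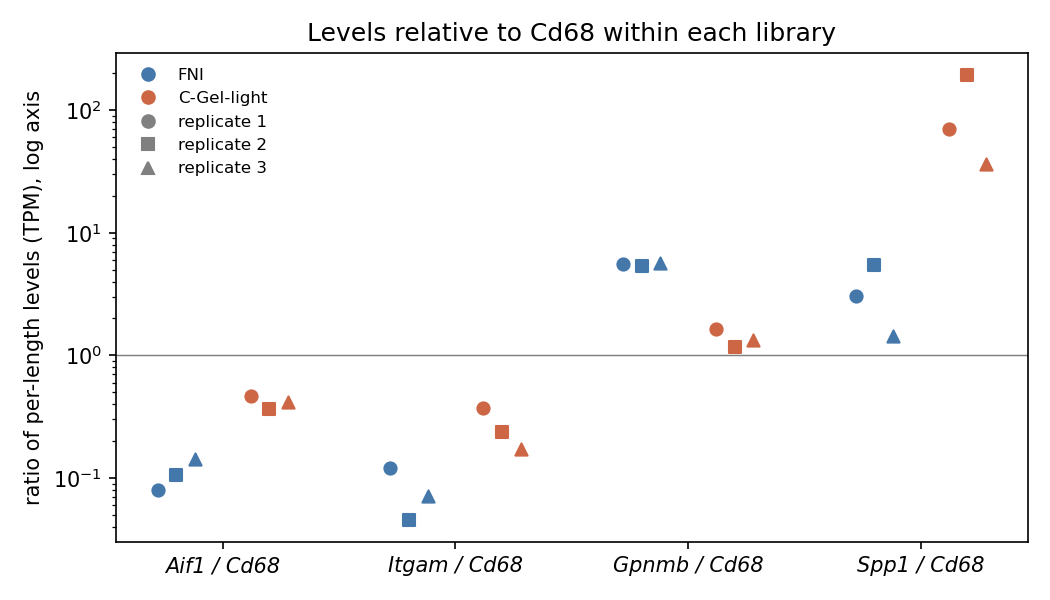
Per-length level (TPM) of Aif1, Itgam, Gpnmb and Spp1 divided by that of Cd68 in the same library, on a log axis. Each point is a library, blue for FNI and orange for C-Gel-light, and the grey line marks a level equal to that of Cd68. Gpnmb per Cd68 is lower with C-Gel-light, at 1.16 to 1.65 against 5.32 to 5.64, and the other 3 ratios are higher.

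The ratio of Spp1 to Gpnmb was added after the values were seen and pairs the highest with the lowest fold change of the 5, so its size follows from that choice and is given with no test. Per length it was 0.547, 1.02 and 0.255 in FNI replicates 1 to 3, but 42.7, 167 and 27.3 in the C-Gel-light libraries. The log2 difference was 6.79, and it ran from 6.03 (without C-Gel-light replicate 2) to 7.33 (without C-Gel-light replicate 3) when each library was left out in turn.

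Likeness of pattern was measured as the root mean square difference of log2 CPM, centred on each gene's mean, over the 6 libraries. Among the 5 genes, Aif1 and Itgam were nearest to each other at 0.63 and Spp1 and Gpnmb furthest apart at 3.53. Cd68 lay at 1.01 from Aif1, 1.01 from Itgam and 1.02 from Gpnmb, but at 2.55 from Spp1. Of the 13036 genes whose mean log2 CPM was 1 or more, the nearest to Gpnmb outside the 5 was ENSRNOG00000054251, at 0.34. Its mean was 31.4 ± 13.4 CPM in FNI and 1.75 ± 0.718 CPM after treatment (SD, n = 3). The nearest to Spp1 was ENSRNOG00000019118, at 0.25, with 31.5 ± 20.1 and 84.4 ± 31.1 CPM (SD, n = 3). Both genes were picked for their likeness over these same libraries, so their differences between groups follow from that choice and are given with no test. The files do not pair these IDs with names.

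**Figure D4:**
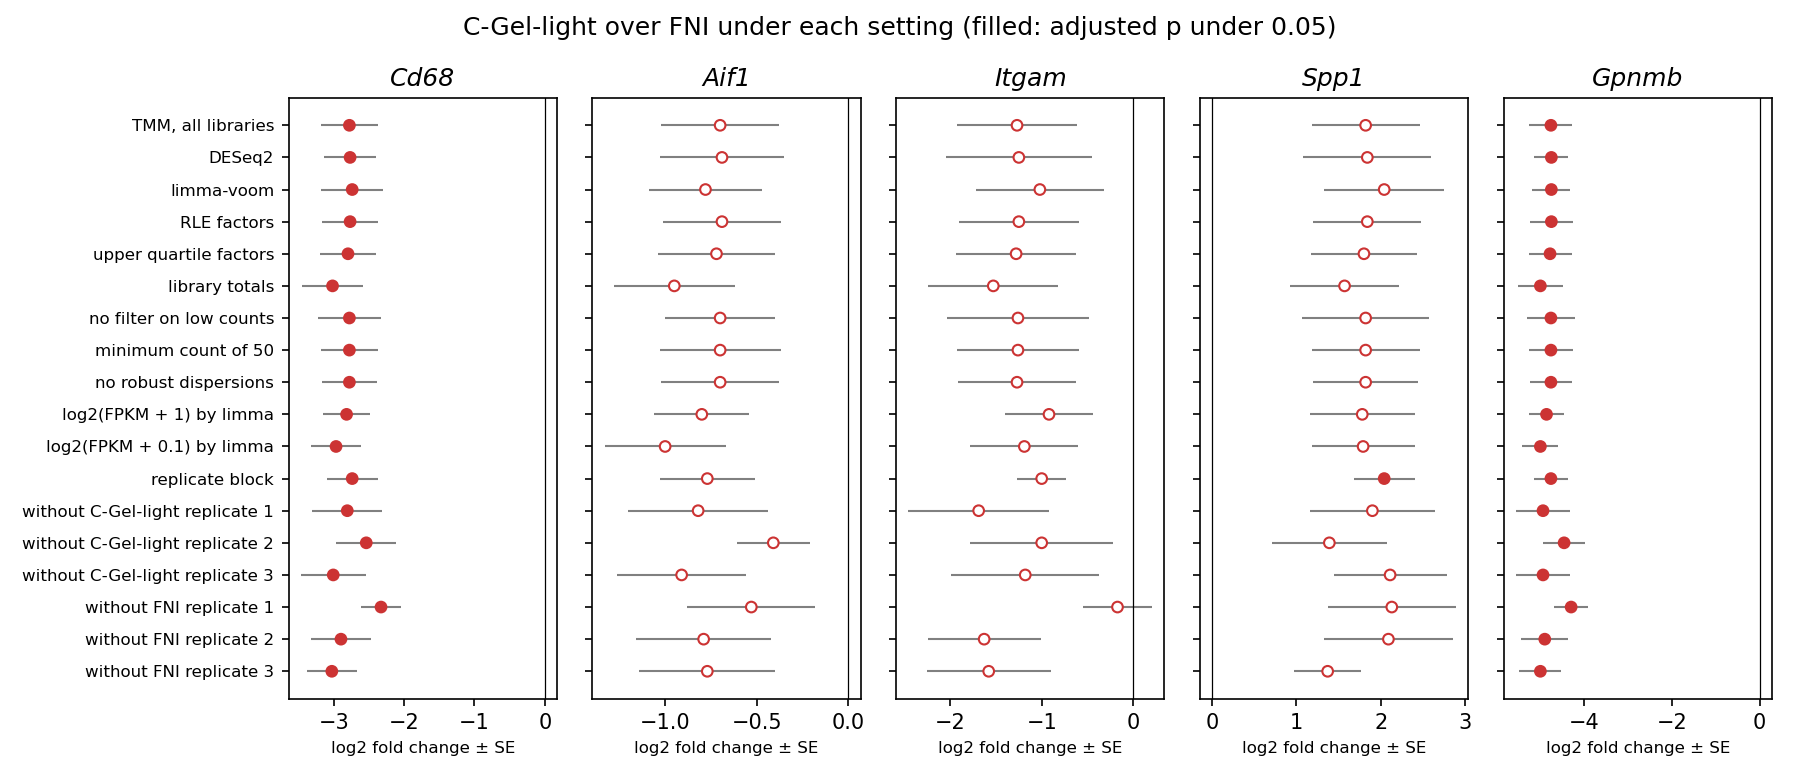
Log2 fold change (C-Gel-light over FNI) with its SE for each gene under every way of testing, normalizing and filtering and without each library, on axes that differ between genes. Filled points have an adjusted p under 0.05, and the vertical line marks no difference. Gpnmb and Cd68 are filled in every row, Aif1 and Itgam in none, and Spp1 with the replicate block alone.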

How the data were processed

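Counts of each Ensembl gene ID were deposited by the authors as raw whole numbers. FPKM values, deposited for each library as well, are by their values the counts rescaled by library total and gene length (1285 to 4348 bases for the 5 genes). Per the submitters' processing notes the build was mRatBN7.2 and the tools were STAR 2.4.2a and RSEM 1.2.29, with edgeR 3.28.1, fastp 0.22.0 and FastQC 0.11.9, with no roles given. If RSEM made the counts, they are rounded estimates. Strandedness is not given in the sources used here, and 0 RefSeq genes (GRCr8) overlapped the 5.

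Counts were tested with edgeR 4.0.16 in R 4.3.3: filterByExpr at a minimum count of 10, TMM factors, robust quasi-likelihood F test, group as the only term, Benjamini-Hochberg over all 15581 genes, two-sided, threshold 0.05. The SE is the log2 fold change over the square root of F. CPM uses TMM-scaled totals, log2 CPM a prior count of 2, and TPM is FPKM rescaled to a common sum. Ratios had 0.5 added to both counts, and exact permutation tests were two-sided. Alternatives were DESeq2 1.42.0, limma 3.58.1 on counts (voom) and on log2 FPKM, other factors and filters, the replicate number as a block, and leaving out each library.

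The names of the 5 IDs came with the rule that chose them. The 5 genes, the lists, the motifs and the rule for named genes (the 5 genes, and the nearest gene in pattern to Spp1 and to Gpnmb) were chosen with earlier results of these data known. The 19 lists of macrophage, lipid, lysosome and other cell type genes were fixed by symbol. As 0 rows of the RefSeq table hold an Ensembl ID, they were not analysed here, so the tissue label was not checked against other markers.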

Additional observations from a re-analysis of the deposited data

How the results depend on the processing

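The directions of all 5 genes were kept in all 17 alternatives. The calls of Gpnmb (log2 fold change -4.99 to -4.29, adjusted p 3.1e-31 to 0.022) and Cd68 (-3.03 to -2.33, adjusted p 4e-12 to 0.036) were kept in each, and Aif1 (-1.0 to -0.41, adjusted p 0.057 to 0.39) and Itgam (-1.69 to -0.17, adjusted p 0.077 to 0.82) passed in none. Spp1 ran from 1.37 to 2.13 (adjusted p 0.032 to 0.24) and passed only with the replicate number as a block, at 2.04 (SE 0.36, adjusted p = 0.032 by edgeR). That block called 3 of the 5 genes, and 1999 of the 15581 genes tested. The labels do not say whether libraries with the same number were matched, so that call of Spp1 rests on a pairing not given. Over all genes tested, the correlations of their deviations were -0.06, 0.03 and 0.09. For 3 of 6 libraries the best match had their own number. Values over all genes cannot settle whether the libraries were matched.

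Against 2301 genes called over the whole table (1101 higher, 1200 lower), DESeq2 gave 3618 (1903 higher), library totals 3937 (645 higher, 3292 lower), log2(FPKM + 1) 3654 (615 and 3039) and log2(FPKM + 0.1) 3741 (632 and 3109). FPKM is scaled by library totals by construction, and the cause of the DESeq2 difference was not tested. With 1 library left out, and so fewer samples, the calls numbered 797 (without FNI replicate 1) to 1726, of which 335 to 864 were higher and 462 to 889 lower, with Gpnmb and Cd68 called each time. The log2 differences of the ratios to Cd68 then ran from -2.15 to -1.89 for Gpnmb, 1.76 to 2.18 for Aif1, 1.41 to 2.11 for Itgam and 4.13 to 5.34 for Spp1. The lists were not tested because their symbols matched no ID. With 3 libraries per group, the 95% intervals of Aif1 and Itgam held both no change and a fall of over 2-fold.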
